A study of Galdieria sulphuraria with 9 samples.

Results

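In *Galdieria sulphuraria*, 19 of the 6538 genes in the count files combined a high transcript level with a small difference between the samplings of a temperature shift timeline. They were chosen on their own values. A gene was taken when it had at least 300 CPM (counts of the gene per 1000000 counts of its library) in all 9 libraries, and when its 4 sampling means of log2(CPM + 1) lay within a span, the highest mean minus the lowest, below 0.4. A level of 300 CPM or more in every library was found in 271 genes, and the span limit left 19 of these. Since the levels and the spans chose the genes, both are given below as a description without a test.

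*G. sulphuraria* is a unicellular red alga of hot, acidic habitats, and the strain was wild type 074W, grown photoautotrophically in separate cultures. These are lettered A, B and C here after the replicate labels, on the assumption that a letter names the same culture in every sampling. The timeline began at 42 °C, where cultures B and C were sampled after 2 weeks (H-42, heat). Stays of 48 h each then followed at 28 °C, at 46 °C and again at 28 °C. The first stay at 28 °C (C-28.1, cold) was represented by all 3 cultures, and the stay at 46 °C (H-46, heat) and the later one at 28 °C (C-28.2, cold) by A and C, which made 5 cold and 4 heat libraries. The same cultures were carried through the timeline, so temperature, order and time in culture cannot be told apart, and each sampling has 2 or 3 libraries. Values below follow the timeline, with the libraries of a sampling in the order of the culture letters.

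RNA sequencing measures each transcript as a share of all transcripts in a library. A gene with a constant share can therefore go with a constant number of transcripts per cell only if the total RNA of the cell is constant, which these libraries do not measure. Genes with steady levels are commonly sought as references for quantitative PCR, where actin, elongation factor 1-alpha, cyclophilins and ubiquitin-conjugating enzymes are frequent choices. In an alga moved between hot and cool medium, membranes, enzyme rates and protein folding all meet a new temperature, and many transcripts are adjusted.

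Library totals lay between 4389066 and 8989387 counts. The 10 most counted genes took between 10.1% and 16.9% of a library, the highest shares being those of both H-46 libraries. Cultures A and C stood farther apart in H-46 and C-28.2 than in C-28.1. The differences between A and C in H-46 and in C-28.2 went together across genes (Pearson's r = 0.57 over the 6264 genes tested, which share these libraries). Since these samplings hold only A and C, this does not tell which culture deviated. Without the culture A libraries of H-46 and C-28.2, a comparison added after the values were seen, 19 genes met both limits and 10 of them were among those described here.

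**Figure D1:**
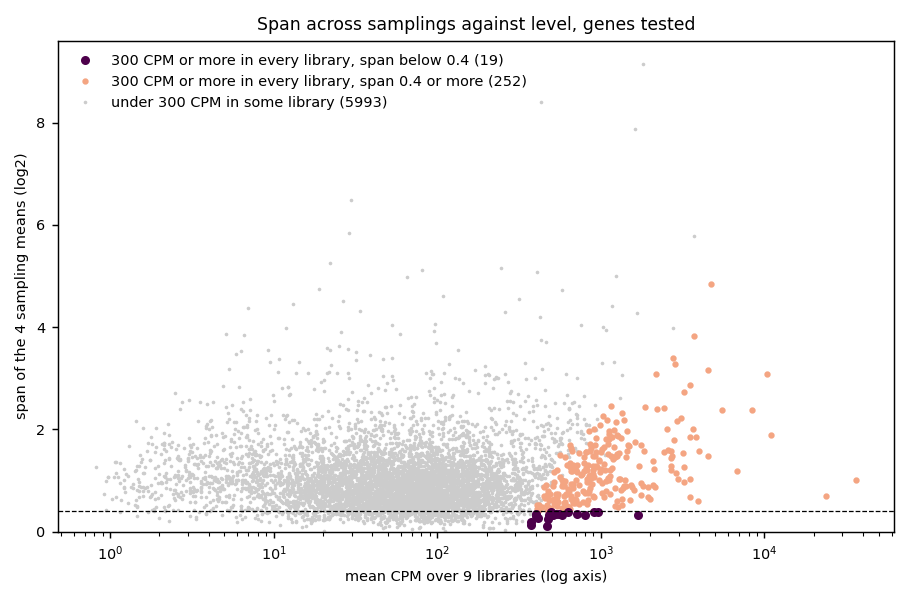
Span of the 4 sampling means of log2(CPM + 1) against the mean CPM over 9 libraries (log axis), for the 6264 genes kept by the filter on low counts. The 19 chosen genes (dark points) lie under the dashed limit of 0.4 and at mean levels of 374 to 1688 CPM, while the 252 other genes with 300 CPM or more in every library (orange) reach a span of 4.85.

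Only 1 of the 19 genes had a product name. It was Gs34520, named a bifunctional quinolinate phosphoribosyltransferase/phosphoglycerate kinase. Phosphoglycerate kinase is a glycolytic enzyme that transfers a phosphate to ADP, and runs in reverse in carbon fixation, while quinolinate phosphoribosyltransferase acts in the synthesis of NAD. Gs34520 had 546 and 535 CPM in H-42, 630, 691 and 663 CPM in C-28.1, 558 and 499.8 CPM in H-46, and 598 and 482 CPM in C-28.2. All 3 libraries of C-28.1 were above every other library, and the libraries of the other samplings overlapped. Its sampling means spanned 0.32 on the log2 scale, a 1.25-fold range.

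The other 18 genes carry only their numbers. Product names were at hand only for genes in the study's tables of alternative or differential splicing and of expression differences. These gave names for 1156 genes and for 35 of the 271 abundant ones. All 19 have a locus tag in RefSeq, but no role is given to them here.

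The highest CPM values belonged to Gs34460. It had 2128 and 1603 CPM in H-42, 1965, 1675 and 1762 CPM in C-28.1, 1722 and 1267 CPM in H-46, and 1533 and 1535 CPM in C-28.2. The lowest library was culture C of H-46 and the highest culture B of H-42, so both ends of the range were heat libraries, with all cold libraries between them. Per kilobase of gene length, introns included, it was also the highest of the 19 with 1888 CPM per kb, the 46th of all genes.

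In Gs43070, Gs58040, Gs11980 and Gs24580, culture A of H-46 was the lowest library. Gs43070 had 1075 and 952 CPM in H-42, 1089, 983 and 852 CPM in C-28.1, 780 and 835 CPM in H-46, and 1161 and 954 CPM in C-28.2. Both H-46 libraries were below all the others. Gs58040 had 880 and 949 CPM in H-42, 848, 850 and 899 CPM in C-28.1, 629 and 1008 CPM in H-46, and 950 and 1135 CPM in C-28.2. Here the H-46 libraries lay on both sides of all 3 of C-28.1, and only culture A was low. Gs11980 had 669 and 754 CPM in H-42, 613, 741 and 729 CPM in C-28.1, 560 and 731 CPM in H-46, and 777 and 843 CPM in C-28.2. Its C-28.2 libraries were above all others. Gs24580 had 657 and 783 CPM in H-42, 607, 627 and 659 CPM in C-28.1, 439 and 681 CPM in H-46, and 623 and 563 CPM in C-28.2. Heat libraries held both the highest and the lowest value of this gene, whose span of 0.39 was the largest of the 19.

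Gs55610, Gs24480 and Gs32500 shared with Gs34520 a highest mean in C-28.1. Gs55610 had 713 and 718 CPM in H-42, 907, 937 and 861 CPM in C-28.1, 853 and 727 CPM in H-46, and 828 and 667 CPM in C-28.2. Its C-28.1 libraries were above the rest, and culture A was above culture C in the other samplings that hold both. Gs24480 had 536 and 525 CPM in H-42, 653, 588 and 636 CPM in C-28.1, 517 and 473 CPM in H-46, and 519 and 523 CPM in C-28.2. Again all 3 libraries of C-28.1 were above the others, which lay close together. Gs32500 had 451 and 433 CPM in H-42, 590, 541 and 539 CPM in C-28.1, 494 and 472 CPM in H-46, and 521 and 579 CPM in C-28.2. It was the only gene of the 19 whose 5 cold libraries did not overlap its 4 heat libraries.

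Gs46370, the remaining gene of the 10 with the highest mean CPM, was lowest in C-28.2. It had 563 and 568 CPM in H-42, 535, 560 and 605 CPM in C-28.1, 445 and 613 CPM in H-46, and 419 and 472 CPM in C-28.2. The H-46 libraries overlapped those of every other sampling.

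**Figure D2:**
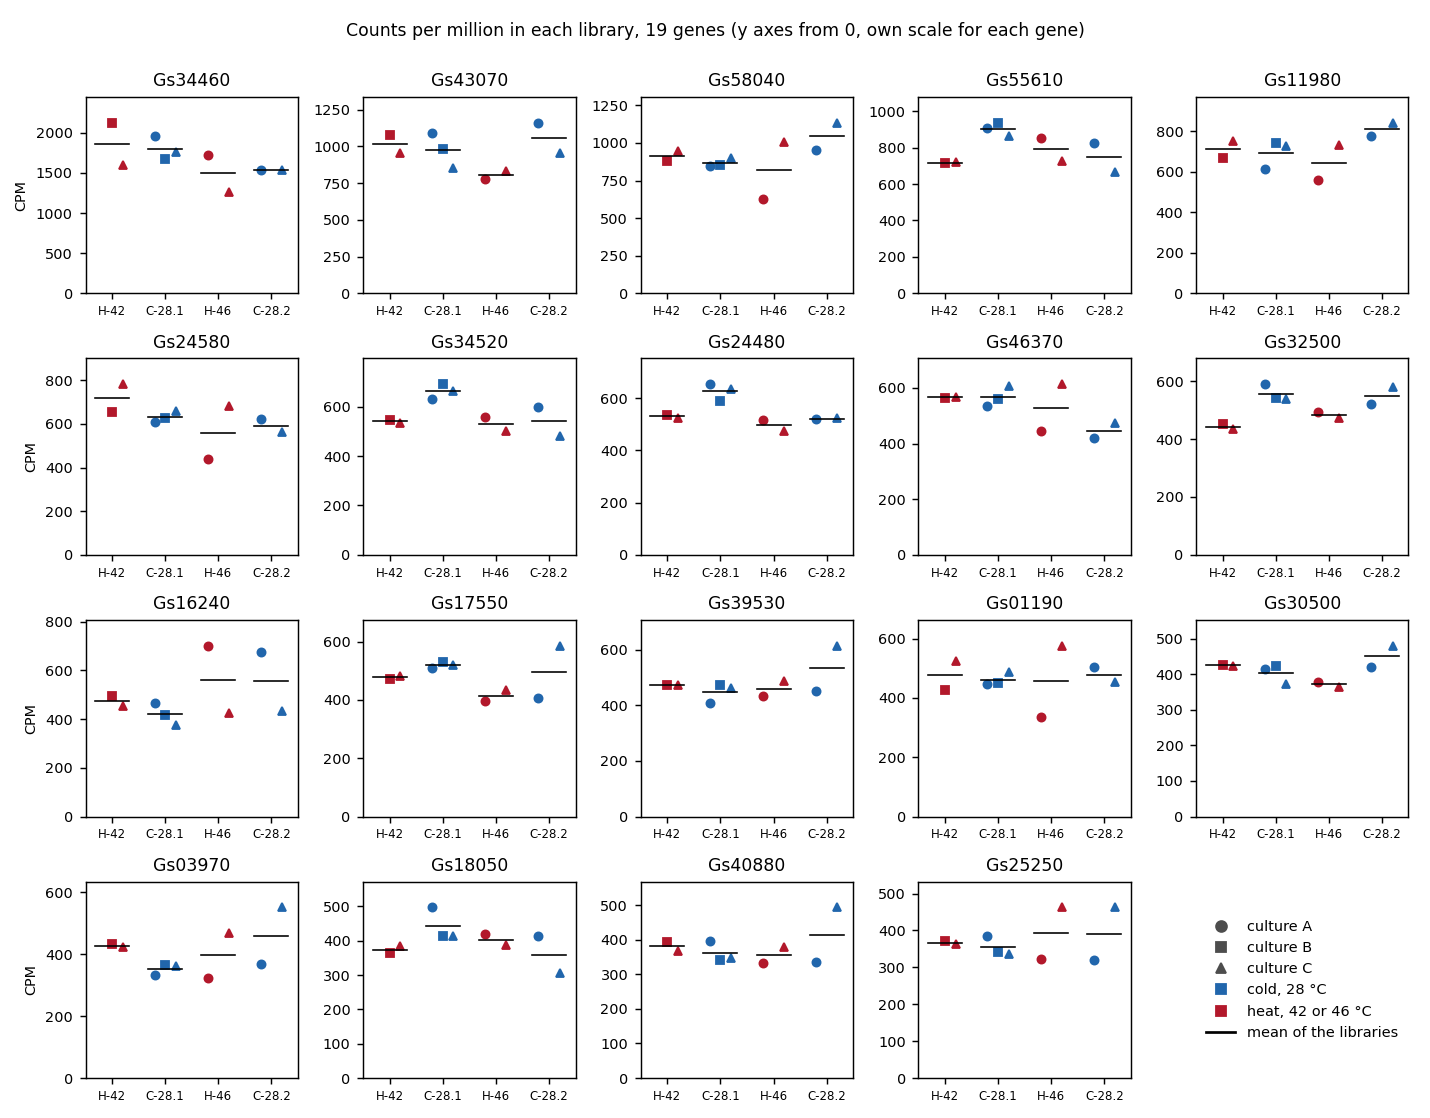
CPM (library totals) of the 19 genes in each of the 9 libraries, in the order of the timeline, with circles, squares and triangles for cultures A, B and C, and a line at the mean of each sampling. In all 19 genes the highest library is less than 2 times the lowest, and cultures A and C often lie farther apart in H-46 and C-28.2 than in C-28.1.

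The smallest spans belonged to Gs01190 (0.11), Gs25250 (0.13), Gs40880 (0.20), Gs39530 (0.24) and Gs30500 (0.27). Single libraries decided most of these. Without culture C of H-46 the span of Gs01190 was 0.50, and without culture A of C-28.2 those of Gs40880 and Gs39530 were 0.47 and 0.46, all 3 past the limit. Without culture A of either H-46 or C-28.2 the span of Gs25250 was 0.39, and without culture A of C-28.2 that of Gs30500 was 0.37. In Gs01190 the 9 libraries lay between 337 and 576 CPM with a median of 452 CPM. Its lowest and highest libraries were cultures A and C of H-46, whose mean was near that of the other samplings. Gs25250 lay between 320 and 463 CPM with a median of 363 CPM. Its highest libraries were culture C of H-46 and of C-28.2, with culture A of each at the low end. Gs40880 lay between 332 and 494 CPM, and a single library, culture C of C-28.2, was well above the others. In these 3 genes the span was smaller than the pooled SD of log2(CPM + 1) between libraries of a sampling, 0.42, 0.53 and 0.96 times it.

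In Gs39530 the libraries ranged from 407 to 614 CPM, and in Gs30500 from 364 to 481 CPM. Culture C of C-28.2 was the highest library of both. In Gs30500 the SD within samplings was 0.09, so that the cultures lay close together as well.

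The other 4 genes were Gs16240 (375 to 702 CPM), Gs17550 (396 to 586 CPM), Gs03970 (324 to 552 CPM) and Gs18050 (305 to 498 CPM). Gs16240 had the largest spread between cultures, an SD within samplings of 0.32, with culture A of H-46 and of C-28.2 above every other library. Gs17550 was highest in culture C of C-28.2 and lowest in culture A of H-46. Gs18050 was highest in culture A of C-28.1 and lowest in culture C of C-28.2.

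Across the 19 genes H-46 was most often the sampling with the lowest mean, in 11 of 19, and C-28.2 most often the highest, in 8 of 19. Among the 252 other abundant genes H-46 was the lowest sampling in 46.4%, and among all 6264 genes tested in 15.4%. C-28.2 was the highest in 27.0% of the 252 others and in 25.1% of all genes tested. In the 252 others C-28.1 was more often the highest (36.1%). Culture A of H-46 alone was the lowest library in 8 of the 19 genes, and culture C of C-28.2 the highest in 7. Without that H-46 library, an alternative chosen after the values were seen, H-46 was lowest in 6 of the 19, and without that C-28.2 library C-28.2 was highest in 5. The genes together took 1.21% and 1.17% of the counts in H-42, 1.23%, 1.19% and 1.19% in C-28.1, 1.06% and 1.13% in H-46, and 1.18% and 1.21% in C-28.2. Both H-46 libraries were the lowest. The share of the 10 most counted genes was highest in the same libraries (16.7% and 16.9%), and its part in the lower share was not tested. With those 10 genes left out of the total, the 19 took 1.28% and 1.36% in H-46. Culture A of H-46 was then still the lowest library, but culture C of H-46 was above cultures B and C of C-28.1 (1.34% each).

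A measure that the choice did not use directly is the spread between cultures at one temperature. The pooled SD of log2(CPM + 1) between libraries of a sampling had a median of 0.17 over the 19 genes (0.06 in Gs24480 to 0.32 in Gs16240), against 0.26 over the 252 other abundant genes and 0.27 over all genes tested. Gs24480 and Gs32500 (0.07) were the steadiest between cultures. The requirement of 300 CPM in every library and sampling means based on few libraries both bear on this spread, so it is not independent of the choice. The highest library was less than 1.5 times the lowest in 10 of the 19 genes and in 1 of the 252 others. The range over all libraries includes the differences between samplings that the span limit capped, so this contrast followed largely from the choice. With 1422 to 19126 counts per gene and library, the counting error in log2 was at most 0.04, below the SD between cultures of every gene of the 19.

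The span exceeded the SD within samplings in 16 of the 19 genes, but exceeded 2 times that SD in fewer, since in 11 of the 19 the SD times 2 was the larger. The ratio of span to SD ranged from 0.42 in Gs01190 to 5.18 in Gs24480. A range of 4 means is not on the scale of an SD, and single pairs of libraries could lie farther apart than the sampling means. In Gs24580, with a span of 0.39, cultures C and A of H-46 differed by 0.63 on the log2 scale, and in Gs16240, with a span of 0.38, by -0.73. The largest fold between sampling means was 1.31, in Gs24580.

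Against cold and heat, the contrast that the choice of genes had already limited, the values were as follows. In the quasi-likelihood test of edgeR with Benjamini-Hochberg adjustment, 0 of the 19 genes had an adjusted p below 0.01, where 25.9% of the 6264 genes tested did. At an unadjusted p below 0.05 the count was also 0, against 49.9% of all genes tested, and DESeq2 called 1 of the 19, against 2154 of the 6264 genes. It was Gs32500 (log2 difference of cold minus heat 0.37, DESeq2 adjusted p = 0.00932). Gs32500 had 554 ± 29.1 CPM in cold (SD, n = 5) and 463 ± 26.2 CPM in heat (SD, n = 4). It was higher in 5 of 5 cold libraries, and its edgeR adjusted p was 0.113. Cold and heat libraries did not overlap in 1 of the 19 genes, against 31.9% of all genes tested.

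For a difference among the 4 samplings, edgeR called 0 of the 19, against 31.0% of all genes tested. No gene of the 19 was under an unadjusted p of 0.05 in edgeR (0 genes), against 61.4% of all genes tested. DESeq2 called 1 of the 19, Gs34520 (DESeq2 adjusted p = 0.00791), against 3022 of the 6264 genes. Between the first and the second cold shift, edgeR called 0 of the 19 genes and 0 of all genes tested for a difference, with 0 of the 19 under an unadjusted p of 0.05, against 24.8% of all genes tested. DESeq2 called 0 of the 19 and 184 of the 6264 genes. These counts describe genes taken for a small span and are no evidence of stability.

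The rule did not compare cultures, although its CPM minimum in every library bears on how far cultures could differ, so the following counts are not fully independent of it. In a model with sampling and culture, edgeR called 0 of the 19 genes for a difference between cultures, where 0.0479% of all genes tested were called. At an unadjusted p below 0.05 there were 2 of the 19 (Gs03970 and Gs16240), against 16.6% of all genes tested, and DESeq2 called 0 of the 19 and 111 of the 6264 genes. For culture C minus culture A, 0 of the 19 were called, against 0.128% of all genes tested, and 5 had an unadjusted p below 0.05, against 26.4%. With single libraries left out, between 0 and 7 of the 19 were under an unadjusted p of 0.05 for a difference between cultures, with 7 when culture A of C-28.1 was left out.

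The 5 genes were Gs03970, Gs16240, Gs58040, Gs39530 and Gs11980. Gs03970 had 363, 469 and 552 CPM in culture C of C-28.1, of H-46 and of C-28.2, against 333, 324 and 369 CPM in culture A. Culture C was higher in 3 of 3 samplings, by a fitted log2 difference of 0.49 ± 0.17 (SE), which did not pass (edgeR adjusted p = 0.109). Gs16240 showed the opposite order, with 375, 423 and 435 CPM in culture C and 465, 702 and 677 CPM in culture A. Culture C was lower in 3 of 3 samplings, by a log2 difference of -0.45 ± 0.16 (SE; edgeR adjusted p = 0.110). For Gs58040, Gs39530 and Gs11980 the log2 differences were 0.43, 0.36 and 0.37, with edgeR adjusted p-values of 0.166, 0.185 and 0.179, and culture C was higher in 3 of 3 samplings in each of them.

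The distance between the cultures was not the same along the timeline. Cultures A and C differed by less than 1.2-fold in 16 of the 19 genes in C-28.1, in 10 in H-46 and in 9 in C-28.2. The median size of the log2 difference was 0.15, 0.23 and 0.28 in these samplings for the 19 genes, against 0.21, 0.48 and 0.40 for all genes tested. In 12 of the 19 genes C minus A had the same sign in H-46 and C-28.2, with 8 higher and 4 lower in culture C. H-42 has no culture A library, and its cultures B and C differed by less than 1.2-fold in 17 of the 19.

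**Figure D3:**
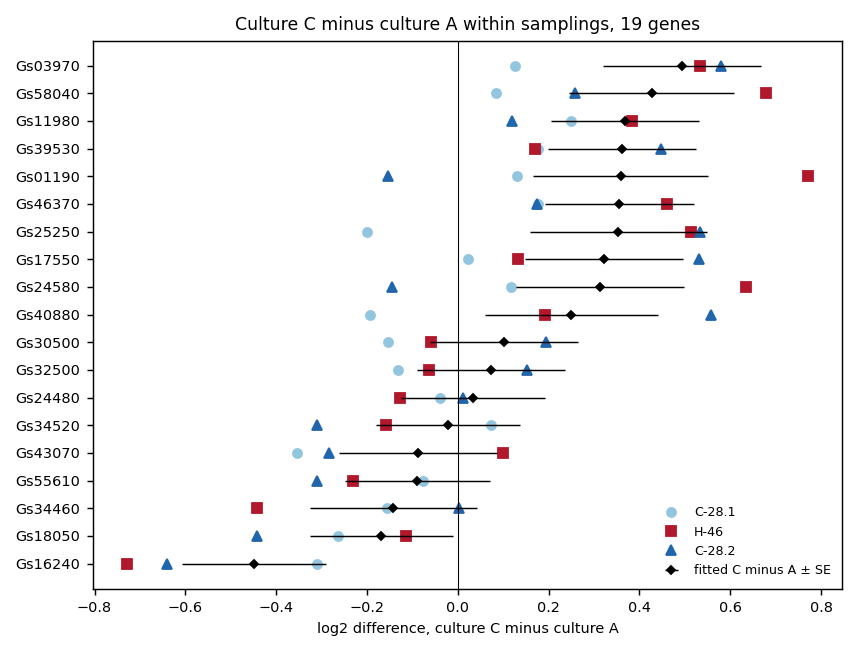
Log2 difference of culture C minus culture A for each of the 19 genes at C-28.1, at H-46 and at C-28.2 (coloured points, CPM on library totals), with the edgeR estimate over all samplings and its standard error (black, TMM-scaled). Gs03970 and Gs16240 lie at the 2 ends with fitted differences of 0.49 and -0.45, and neither passed the adjusted threshold.

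Leaving cultures out changed which genes met the limits. Culture C has a single library in each sampling, and cultures A and B have more than that only in C-28.1. These spans therefore take in the spread of single libraries. In cultures A and B, H-42 came from B alone and H-46 and C-28.2 from A alone, so culture and temperature cannot be told apart there. In culture C alone, 7 of the 19 genes had a span below 0.4, with a median of 0.42 and values up to 0.60 (Gs03970). In cultures A and B alone, 10 of the 19 were below 0.4, with a median of 0.39 and values up to 0.67 (Gs16240). The 271 abundant genes had medians of 1.06 in culture C and 1.17 in cultures A and B. The rule applied to cultures A and B alone took 25 genes, which had a median span of 0.48 in culture C, the set of libraries not used, and 3 of the 25 were below 0.4 there. Applied to culture C alone it took 12 genes, whose median span was 0.57 in cultures A and B, with 1 of the 12 below 0.4. Only Gs55610 met both limits in culture C and in cultures A and B separately, with spans of 0.37 in each.

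The scaling of the libraries also decided the membership. Library totals were used by the rule, while TMM (trimmed mean of M-values) and the size factors of DESeq2 set each library by the majority of genes. Relative to library totals TMM raised the effective size of culture A of H-46 by a factor of 1.14 and lowered that of culture C of C-28.2 to 0.942. On library totals the median gene was higher in H-46 than in C-28.1 by a log2 difference of 0.20. The 19 genes had a median of -0.12, and the 252 other abundant genes one of -0.47. With TMM-scaled sizes 10 of the 19 genes kept a span below 0.4, 6 met both limits, and the largest span was 0.52, in Gs24580. With DESeq2 size factors 8 kept the span and 4 met both limits. The 4 genes that met both limits under all 3 scalings were Gs16240, Gs18050, Gs39530 and Gs55610, and no gene outside the 19 was added by TMM or by the DESeq2 size factors.

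Under TMM the lowest sampling was H-46 in 15 of the 19 genes, and the highest was a cold sampling in 18. The same counts were not made under TMM for the other abundant genes or for all genes. They are therefore not read as a trait of the 19. Cold minus heat was above 0 in 18 of 19, with a median log2 difference of 0.17 (-0.04 to 0.36), beside -0.01 over all genes tested. Among the 252 other abundant genes cold minus heat was above 0 in 156, with a larger median of 0.38. On library totals it was above 0 in 14 of 19, with a median of 0.07, beside -0.10 over all genes. The direction of some of these small differences thus depended on the scaling. It also rested on single libraries: with TMM, cold minus heat was above 0 in 14 of 19 with a median of 0.10 without culture A of H-46, and in 16 of 19 with a median of 0.11 without culture C of C-28.2. Gs34520, the named kinase, illustrates the change, as its span was 0.32 on library totals and 0.50 with TMM, with C-28.1 highest and H-46 lowest under both.

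**Figure D4:**
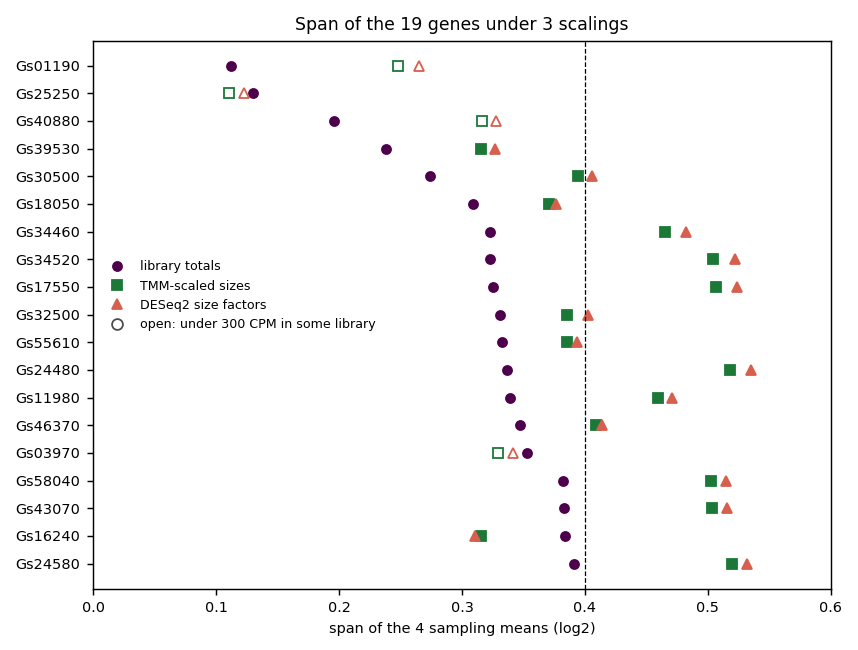
Span of the 4 sampling means for each of the 19 genes with library totals, TMM-scaled sizes and DESeq2 size factors, ordered by the span on totals, with the limit of 0.4 dashed. Filled points have at least 300 CPM in every library, and open points fall below it. All 19 genes are left of the line on totals, 10 with TMM and 8 with DESeq2 size factors.

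Just inside the span limit were Gs24580 (0.39), Gs16240, Gs43070 and Gs58040 (0.38 each) and Gs03970 (0.35). Just outside it, at 300 CPM or more in every library, were Gs32950 (0.41), Gs19040 (0.42), Gs18090 and Gs48050 (0.43 each) and Gs36220 (0.44). At the CPM limit, Gs18050, Gs25250 and Gs03970 had their lowest libraries at 305, 320 and 324 CPM, and Gs02810, Gs12540 and Gs21750 met the span limit with lowest libraries at 291, 288 and 271 CPM. Genes on either side of a limit thus differed little.

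A small span was not more frequent at high levels. Among genes whose lowest library had 300 CPM or more, 7.01% had a span below 0.4. The share was 10.7% of 898 genes from 100 to 300 CPM, 9.42% of 2451 genes from 30 to 100 CPM, and 6.75% of 1497 genes from 10 to 30 CPM.

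Levels between genes were compared per kilobase. The 19 genes had a median of 487 CPM per kb, against 847 CPM per kb for the 252 other abundant genes and 41.7 CPM per kb for all genes tested. Gs40880, the longest of them with 3715 bases, was the lowest at 101 CPM per kb. Their median length of 1436 bases lay near the 1405 bases of all genes tested.

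Neighbours of the 19 genes were taken in the order of locus numbers, without positions on the genome. None of the 38 neighbours was another of the 19 (0 of 38), where 19 of all 6538 genes were chosen. Among the neighbours 2 reached 300 CPM in every library, as did 271 of all 6538 genes. They were Gs16250 beside Gs16240 and Gs34510 beside Gs34520, with spans of 1.47 and 0.64. Both counts are near the background. The closest pair of the 19 by locus number was Gs34460 and Gs34520, with 5 genes between them.

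Gene lists were made from words in the product names, and 1 of 15 lists held one of the 19 genes. Only Gs34520 has a product name, so no other gene of the 19 could enter a list. Of the 35 abundant genes with a name, 21 were named only in the study's list of expression differences. Genes with a small span are unlikely to be on that list. The word list that held Gs34520 was carbon metabolism, the enzymes of glycolysis, the citric acid cycle and carbon fixation. Gs34520 was 1 of its 10 genes. In that list edgeR called 3 genes higher in cold than in heat and 0 lower, where 13.9% of all genes tested were called higher and 12.1% lower. The other 7 did not pass, and the spans ranged from 0.32, that of Gs34520, to 1.08 with a median of 0.67, beside 0.92 for all genes tested. Phosphoglycerate mutase (Gs06130), which acts next to phosphoglycerate kinase in glycolysis, had a span of 0.49 at a mean of 121 CPM.

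Products of the kinds commonly taken as references for quantitative PCR formed another list, of 20 genes. Of these, 2 reached 300 CPM in every library and 0 met the rule, which 19 of all 6538 genes did, so a count of 0 is near the background. As 18 of the 19 genes have no product name here, whether any of them is of such a kind is not known. Their spans ranged from 0.43 (a peptidylprolyl isomerase, Gs04460) to 2.73, with a median of 0.93. edgeR called 4 of the 20 higher in cold than in heat and 5 lower, and 11 did not pass. Of all genes tested, 13.9% were called higher and 12.1% lower. Of the 20 names, 4 came only from a list of genes that the study chose on these samples for a difference between heat and cold, so their direction is not independent evidence. Actin and elongation factor EF-1 alpha are among those 4.

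Actin (Gs17630), a cytoskeletal protein, had 891 and 674 CPM in H-42, 3604, 3140 and 3246 CPM in C-28.1, 850 and 437 CPM in H-46, and 2438 and 1422 CPM in C-28.2. All 5 cold libraries were above the 4 heat libraries. The log2 difference of cold minus heat was 2.05 ± 0.33 (SE), with an edgeR adjusted p of 0.000409. EF-1 alpha (Gs19840), which brings aminoacyl-tRNA to the ribosome, had 1243 and 987 CPM in H-42, 5235, 5491 and 4933 CPM in C-28.1, 1178 and 525 CPM in H-46, and 6111 and 3112 CPM in C-28.2. Cold and heat again did not overlap, as was the case in 31.9% of all genes tested. The log2 difference of cold minus heat for EF-1 alpha was 2.42 ± 0.32 (SE), with an edgeR adjusted p of 0.000124. Both met the limit of 300 CPM in every library, the only 2 of the list to do so. Their spans of 2.45 and 2.73 were the largest of the list, and 5 genes of the list were called lower in cold. Actin and EF-1 alpha thus do not stand for the list.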

How the data were processed

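RNA was sequenced in 9 libraries of *G. sulphuraria* 074W. The authors deposited raw counts per gene (whole numbers, 6538 genes per library, not normalized). The Methods describe trimming with Trimmomatic and mapping with STAR for the splicing analysis. The counting tool, annotation version and strand setting are not given in the sources used here, so genes that overlap or have near-identical copies could share reads.

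CPM used library totals. The filter filterByExpr kept 6264 genes, all 19 among them. edgeR 4.0.16 (R 4.3.3) was run by the quasi-likelihood method with TMM, and genes with a Benjamini-Hochberg adjusted p below 0.01 were called, without a minimum fold. Models had temperature class (cold or heat), sampling, or sampling and culture, as terms. The cold against heat model joined H-42 with H-46 and C-28.1 with C-28.2, so differences between these entered its spread. Standard errors are the log2 difference divided by the square root of F. DESeq2 1.42.0, other scalings, filters and limits, culture as a block and leaving out each library were alternatives. The tests were checked on simulated counts. The pseudocount was 1 CPM.

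The replicate letters of the labels were read as cultures, since the study moved its cultures through the samplings. That a letter names the same culture in every sampling is not stated in the sources used here. Deviations from the sampling mean correlated at 0.57 between culture A of H-46 and of C-28.2. In the other pairs of the same letter that were compared, the correlations were only 0.04 to 0.20. The culture comparisons rest on this reading of the letters.

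The genes and the lists were chosen with earlier results of these data known. The genes named by rule are the 10 with the highest mean CPM, those with the smallest and largest spans and those next to a limit. Those with the smallest p in the culture comparison were also named by rule. Other genes, such as the neighbours, phosphoglycerate mutase, Gs04460, actin and EF-1 alpha, were named as examples outside these rules. Product names came from the study's tables of alternatively spliced introns, differentially spliced introns and differentially expressed genes. The gene lists therefore hold only genes in those tables. The coverages and fold changes in them were not used. Locus tags, gene lengths and neighbours came from RefSeq assembly ASM34128v1 (6510 of 6538 genes matched), and neither sequences nor coordinates were used here. Libraries of a sampling come from separate cultures. No libraries were duplicates.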

Additional observations from a re-analysis of the deposited data

Results flagged for a closer look

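Among 40 groups of values (the 19 genes and their joint share of the counts, each in the cold and in the heat libraries), 2 held a library apart from the rest by Dixon's gap test, where chance gives about 5% of groups. Gs03970 had 552 CPM in culture C of C-28.2, above the other cold libraries at 333 to 369 CPM (gap over range 0.836). Gs55610 had 853 CPM in culture A of H-46, above the other heat libraries at 713 to 727 CPM (gap over range 0.900).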

How the results depend on the processing

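The number of genes found, 19, moved with the scaling, the limits and the cultures used. It was 6 with TMM, 4 with DESeq2 size factors, 44 and 5 with a minimum of 200 and 500 CPM, 5 and 31 with a span limit of 0.3 and 0.5, 12 in culture C alone, 25 in cultures A and B alone, 1 in culture C and in cultures A and B separately, 35 when the 9 single libraries had to lie within 0.8, and 4 under all 3 scalings at once, an alternative added after the data were seen. Leaving out single libraries gave 15 to 25 genes. Without culture A of C-28.2, 11 of the 15 found were among the 19, and without culture C of H-46, 12 of 16. Pseudocounts of 0.5 and 5 CPM gave the same 19 genes. The median span lay between 0.32 and 0.39 and the median SD within samplings between 0.13 and 0.19 when single libraries were left out. The median share of counts was 1.19%, 1.36% without the 10 most counted genes in the total, and 0.308% for the 6 genes that met the limits with TMM. DESeq2 called 1 gene for cold against heat and 1 among the 4 samplings. All other settings, each library left out included, gave 0 in every comparison. With culture as a replicate block the counts of called genes among the 19 remained 0. The log2 difference of culture C minus A kept its sign in Gs03970 (0.37 to 0.71), Gs16240 (-0.55 to -0.37), Gs58040 (0.25 to 0.62), Gs39530 (0.24 to 0.46) and Gs11980 (0.27 to 0.41). With 2 or 3 libraries a sampling, a small span can arise from means of libraries that differ, as in Gs01190.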
